A study of Mus musculus with 8 samples.

Results

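The 38 genes described here are genes by which T lymphocytes and natural killer (NK) cells are recognized, and they were measured in RNA of hepatic macrophage preparations. They were chosen by symbol from the functions they are known for, with earlier results of these data known, and all 38 were found, with 1 row each, among the 55401 genes of the deposited table. Hepatic macrophages came from WT C57BL/6J mice on a standard diet, whose livers are labelled normal, or from MC4R-KO mice of the same C57BL/6J background, labelled steatotic, which had eaten a Western diet over 6 to 10 wk. MC4R is the melanocortin receptor of the brain that limits food intake, and mice without it become obese. Non-parenchymal liver cells were bound with an antibody to F4/80, a surface protein of macrophages, pulled out on a magnetic column, plated on collagen and cultured for 24 h without crystals (vehicle, Veh) or with 500 μg/ml of cholesterol crystals (CC). Each of the 4 groups (normal with Veh, normal with CC, steatotic with Veh, steatotic with CC) had 2 libraries. Genotype and diet differed together between the labels and cannot be told apart. The labels do not say whether the 2 libraries of a group came from separate animals or cultures, so that the p-values measure the spread between these samples only, which may be technical.

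T cells recognize peptides on other cells with a receptor made of 2 variable chains, which signals through the CD3 proteins and the ζ chain (*Cd247*). The kinase LCK phosphorylates these chains, ZAP-70 binds them, and the adaptor LAT passes the signal on. NK cells carry no such receptor and respond to the balance of activating and inhibiting receptors, many of them encoded in 1 cluster of lectin-like genes. Cytotoxic T cells and NK cells kill with granules that hold perforin and granzymes, and the liver is known for its large populations of NK cells, type 1 innate lymphoid cells (ILC1) and T cells.

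On GRCm38 (mm10), 8 of the 38 genes lie on chromosome 6, among them *Cd8b1* (71322788 to 71337494) and *Cd8a* (71373427 to 71379173) and, within the NK gene cluster, *Klrb1c* (128778485 to 128789215), *Klrd1* (129591782 to 129598775) and *Klrk1* (129610323 to 129623864). On chromosome 9, *Cd3g* (44969572 to 44980431), *Cd3d* (44981786 to 44987339) and *Cd3e* (44998740 to 45009627) follow each other, and on chromosome 1 *Cd28* (60716800 to 60773359), *Ctla4* (60887000 to 60915832) and *Icos* (60977927 to 61000320) do. *Gzmb* lies on chromosome 14 (56258838 to 56262260), *Gzma* on chromosome 13 (113093825 to 113100981), and *Il7r* (9505788 to 9530176) and *Il2rb* (78479256 to 78495271) on chromosome 15. Counts were summed over whole genes, so no isoform is told apart.

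Some facts of the whole series bear on every value. *Mc4r*, which the knockout removes, was at 0 counts in the WT libraries and at 22 to 72 counts in each of the KO libraries, which goes against the labels if the knockout allele gives no reads. For this reason the libraries are named by their labels throughout, and any direction given below depends on those labels. Total counts were 58668655 to 74529462 per library, and about 4 counts stood for 1 sequenced fragment. CPM are counts per 1000000 counts of a library, and a floor of 3 fragments, or 12 counts, lay at 0.161 to 0.205 CPM, which covers counting error only. The 15 macrophage markers had a summed level of 20909 to 28191 CPM with the label normal and 20167 to 29829 CPM with the label steatotic, though 10 of the 15 were higher and 4 lower at Veh. *Alb*, the albumin of hepatocytes, was at 41.03 to 49.4 CPM with the label normal and 1.24 to 2.31 CPM with the label steatotic, and 7 of 10 tested hepatocyte markers were lower at Veh, with 6 of the 10 past the filter through the label normal alone. This difference in hepatocyte RNA moved with the label of the liver, and its part in the results was not tested. In RNA of a whole preparation, more cells of a type and more RNA per cell cannot be told apart.

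The regulatory sequence of 4 genes is shown because most of these genes moved together between the labels, each being the gene with the largest mean CPM per kb that had an entry in its role (CD3 and receptor chains, receptor signalling, cytotoxic granules, NK receptors). The sequences are the 250 bases before the transcript start that RefSeq gives on GRCm38.p6, 5′ to 3′ on the strand of the gene, and a window that overlapped an annotated exon was left out (the second start of *Lck*). The window of *Gzmb* (from 56262335) does not adjoin the gene as given above (to 56262260), as RefSeq and GENCODE differ in its start. Of the 38 genes, 26 had an entry. Capitals mark 4 short motifs searched on both strands, AGGAAG (ETS factors), TGTGGT (RUNX factors), CTTTGA (TCF and LEF factors) and GGTGTG (T-box factors), of which the second and the last can overlap.
Cd3g, chr9:44980432-44980681, minus strand: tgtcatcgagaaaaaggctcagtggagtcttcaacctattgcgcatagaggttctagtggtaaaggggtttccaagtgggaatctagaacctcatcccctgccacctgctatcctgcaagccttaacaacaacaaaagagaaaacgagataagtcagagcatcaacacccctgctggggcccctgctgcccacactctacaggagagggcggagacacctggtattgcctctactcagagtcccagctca
Lck, chr4:129573642-129573891, minus strand: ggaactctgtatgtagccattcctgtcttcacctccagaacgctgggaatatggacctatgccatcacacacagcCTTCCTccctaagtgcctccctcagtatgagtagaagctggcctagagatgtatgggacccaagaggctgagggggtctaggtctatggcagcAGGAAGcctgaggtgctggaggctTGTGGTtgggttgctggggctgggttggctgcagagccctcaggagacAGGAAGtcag
Gzmb, chr14:56262335-56262584, minus strand: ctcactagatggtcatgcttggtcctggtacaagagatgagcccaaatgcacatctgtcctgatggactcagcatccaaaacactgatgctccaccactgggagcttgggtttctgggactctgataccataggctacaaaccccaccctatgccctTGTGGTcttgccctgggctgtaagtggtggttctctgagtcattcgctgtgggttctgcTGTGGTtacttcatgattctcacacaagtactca
Klrk1, chr6:129623865-129624114, minus strand: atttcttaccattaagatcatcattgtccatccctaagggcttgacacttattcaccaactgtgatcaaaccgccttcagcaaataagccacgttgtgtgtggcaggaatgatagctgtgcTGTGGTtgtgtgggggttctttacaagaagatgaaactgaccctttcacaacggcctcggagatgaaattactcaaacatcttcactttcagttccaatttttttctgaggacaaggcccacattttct
*Cd3g* held none of these letters, *Lck* held 4 matches (3 ETS and 1 RUNX), *Gzmb* 2 and *Klrk1* 1, both of the RUNX type. Over 32841 promoter windows of this length, 29.5% held the ETS letters, 14.0% the RUNX letters, 13.8% the TCF/LEF letters and 16.3% the T-box letters. The 26 genes with an entry had 36 windows, of which 18 held the ETS letters, 11 the RUNX letters, 5 the TCF/LEF letters and 7 the T-box letters. A match is a description of the letters and not a binding site.

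The β-chain constant genes *Trbc1* and *Trbc2*, on chromosome 6 of GRCm38 from 41538218 to 41539881 and from 41546730 to 41548352, are shown because they are near copies. Their transcripts were identical over the first 259 bases, and 498 of 521 aligned bases (95.6%) were the same. Bases 250 to 309 of both hold the first base that differs, in capitals.
Trbc1: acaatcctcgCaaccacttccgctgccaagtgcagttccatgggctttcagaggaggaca
Trbc2: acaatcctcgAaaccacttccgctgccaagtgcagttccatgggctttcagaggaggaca
Of the 75-base windows of *Trbc1*, 34.6% also occurred in *Trbc2*, and 37.7% of the windows of *Trbc2* occurred in *Trbc1*, so that the split of reads between them is uncertain. *Klrb1c* shared 13.2% of its windows with other genes (*Gm44511*, *Klrb1a* and *Klrb1b*) and *Foxp3* 12.5% with *Flicr*. The other 34 genes shared under 5%, and 29 genes shared none.

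At Veh, most T and NK cell genes were higher in the libraries labelled steatotic, at levels that were low against macrophage genes. The granule proteases *Gzma* and *Gzmb*, the IL-15 receptor chain *Il2rb*, the NK receptors *Klrd1* and *Ncr1* and the coreceptor *Cd8a* stood 11.9-fold or more above the libraries labelled normal, while *Cd4* and *Il7r* were at 0.717 and 0.965 times the level of those libraries. Over Veh and CC, 33 of the 38 genes had each of the 4 libraries labelled steatotic above each of the 4 labelled normal, and none had the reverse order. Among all 15202 tested genes, 13.5% had the first order and 16.7% the second. The 5 genes whose libraries overlapped were *Cd4*, *Il7r*, *Tcf7*, *Lef1* and *Foxp3*. All but 10 of the genes stayed under 3 CPM in every library, 22 had 0 counts in at least 1 library labelled normal, and 15 were at or under the floor in all 4 of them. With the label steatotic, 36 were over the floor in every library. The filter for testing (at least 0.5 CPM in at least 1 library) kept 36 genes, all but *Foxp3* and *Lef1*. Of these, 26 passed it through the libraries labelled steatotic alone, so that their counts, calls and p-values below are a description. In the edgeR quasi-likelihood test, 25 of the 36 were higher at an adjusted p-value under 0.05 (16.4% of all tested genes were) and 0 lower (14.3%). At an unadjusted p-value under 0.05, 32 were higher (20.9% of all tested genes were) and 0 lower (19.9%), and DESeq2 also gave 0 lower. The median log2 fold change of the 36 was 3.18, or 3.04 with the 4 genes that had 0 counts in a group set to their bound, against -0.01 over all tested genes.

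**Figure D1:**
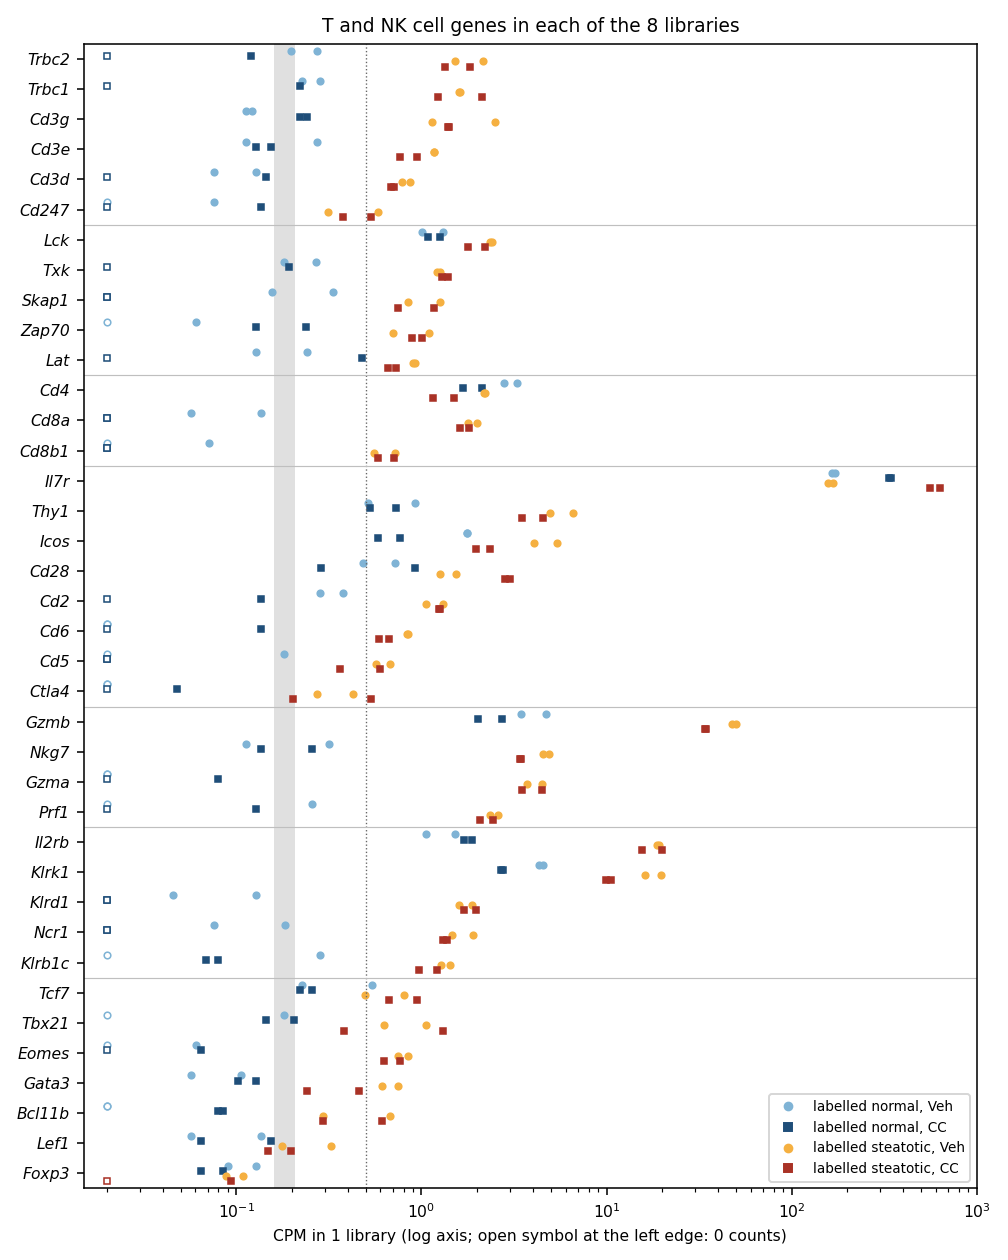
CPM of each of the 38 genes (log axis) in each of the 8 libraries, with circles for Veh and squares for CC, blue for the label normal and orange or red for the label steatotic. Open symbols mark 0 counts, the gray band is the floor of 3 fragments (0.161 to 0.205 CPM), the dotted line is the filter at 0.5 CPM and the gray lines separate the roles. The libraries by label do not overlap in 33 genes.

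The 6 CD3 and receptor chain genes summed to 0.513 to 1.04 CPM with the label normal and 6.13 to 8.87 CPM with the label steatotic. *Cd3e*, the ε chain that every T cell receptor needs, was at 0.113 and 0.272 CPM (normal, Veh), 0.128 and 0.153 CPM (normal, CC), 1.17 and 1.17 CPM (steatotic, Veh) and 0.945 and 0.765 CPM (steatotic, CC). The labels did not overlap, and the 2 libraries of steatotic with Veh were nearly the same. *Cd3g*, the γ chain, was at 0.113, 0.121, 0.240 and 0.222 CPM with the label normal, Veh before CC, and at 2.49, 1.14, 1.39 and 1.41 CPM with the label steatotic. Here 1 library of steatotic with Veh stood above the other 3 with that label. *Cd3d*, the δ chain, was at 0 to 0.144 CPM and 0.686 to 0.864 CPM in the same order of labels, and *Cd247* at 0 to 0.136 and 0.313 to 0.585 CPM. At Veh, the log2 fold change was 2.64 ± 0.49 (SE, n = 2 per group, adjusted p = 0.00538) for *Cd3e* and 3.98 ± 0.48 (adjusted p = 0.000623) for *Cd3g*. *Trbc2* was also higher (2.99 ± 0.69, adjusted p = 0.0145), and *Trbc1*, its near copy, missed the threshold (2.70 ± 0.86, adjusted p = 0.0545). In all, 4 of the 6 were higher at Veh, and *Cd247* was not called. All 6 had passed the filter through the libraries labelled steatotic alone. *Trac*, the constant gene of the α chain and no member of the set, was at 0.192 to 0.453 CPM with the label normal and 0.671 to 1.41 CPM with the label steatotic. *Cd3e*, *Cd3g* and *Trac* had counts in every library, but *Cd3e* was at or under the floor of 12 counts in 3 of the 4 libraries labelled normal and *Cd3g* in 2 of them, and *Cd3d*, *Cd247*, *Trbc1* and *Trbc2* each had 0 counts in at least 1.

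Of the genes that carry the receptor signal inside the cell, *Lck* had the highest level. It was at 1.01 and 1.31 CPM (normal, Veh), 1.27 and 1.09 CPM (normal, CC), 2.34 and 2.39 CPM (steatotic, Veh) and 2.21 and 1.78 CPM (steatotic, CC). Its labels did not overlap, and at Veh it was 2.05-fold higher, a log2 fold change of 1.07 ± 0.24 (adjusted p = 0.0125), the smallest among the 25 genes called. *Zap70*, the kinase that binds the CD3 chains, went from 0 and 0.0604 CPM to 0.703 and 1.101 CPM at Veh, and its ratio of 31.1 rested on 4 counts with the label normal (95% exact interval 5.15 to 1256, counting error only). *Skap1*, an adaptor for integrin activation, was at 0.156 and 0.332 CPM against 0.849 and 1.26 CPM, and was called. *Txk*, a TEC kinase, missed the threshold (2.49 ± 0.81, adjusted p = 0.0535), and *Lat* did so by more, with 0 to 0.477 CPM against 0.656 to 0.922 CPM over Veh and CC. Thus 3 of the 5 were higher at Veh.

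The coreceptors split. *Cd8a*, which with *Cd8b1* binds MHC class I on target cells, was at 0.0567 and 0.136 CPM (normal, Veh), 0 and 0 CPM (normal, CC), 1.99 and 1.79 CPM (steatotic, Veh) and 1.80 and 1.61 CPM (steatotic, CC). At Veh it was 19.9-fold higher with an exact interval of 7.06 to 107, from 13 against 268 counts. *Cd8b1* had 5 against 91 counts, and both were called higher. *Cd4*, which binds MHC class II and which some macrophages also express, was at 3.30 and 2.79 CPM (normal, Veh), 1.67 and 2.11 CPM (normal, CC), 2.20 and 2.19 CPM (steatotic, Veh) and 1.16 and 1.503 CPM (steatotic, CC). Its highest libraries were those labelled normal with Veh, its labels overlapped, and it was called in no contrast. Per kb of exon, *Cd8a* stood at 0.909 to 1.72 times *Cd4* in the libraries labelled steatotic and at 0 to 0.0539 times in those labelled normal. *Cd8a* and *Cd8b1* were within 0.923 to 1.46 times of each other per kb in the libraries labelled steatotic.

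Among the 8 surface and costimulatory genes, *Thy1*, *Icos*, *Cd6* and *Ctla4* were higher at Veh. *Icos*, a costimulator that activated T cells and group 2 innate lymphoid cells carry, was at 1.76 and 1.77 CPM (normal, Veh), 0.769 and 0.580 CPM (normal, CC), 4.04 and 5.42 CPM (steatotic, Veh) and 1.97 and 2.35 CPM (steatotic, CC). The lowest library labelled steatotic, with CC, was just above the highest labelled normal, with Veh. At Veh its log2 fold change was 1.47 ± 0.23 (adjusted p = 0.00252). *Thy1*, a surface protein of T cells and also of fibroblasts, was at 0.513 to 0.921 CPM with the label normal and 3.49 to 6.56 CPM with the label steatotic, and its log2 fold change was 3.05 ± 0.34 (adjusted p = 0.000381). Of 10 stellate cell and fibroblast markers, 2 were tested, and 1, *Dcn* (decorin), was higher, at 2.07 and 2.14 CPM against 17.4 and 20.8 CPM at Veh, while the other, *Pdgfra*, was not called. *Dcn* made up 96.9% of the sum of the list, which was 3.56 to 3.71 CPM with the label normal and 18.3 to 21.9 CPM with the label steatotic at Veh, and *Pdgfrb* was at 0.425 and 0.393 CPM against 0.117 and 0.0680 CPM. The part of such cells in *Thy1* was not tested. *Cd6*, a scavenger-type receptor of T cells, had 0 counts in both libraries labelled normal with Veh and 119 with the label steatotic, at least 9.56-fold higher against the floor (exact lower limit 7.37). *Ctla4*, the inhibitory receptor related to *Cd28*, had 0 against 49 counts, at least 3.94-fold higher (exact lower limit 2.68). *Cd28* itself was at 0.722 and 0.483 CPM against 1.26 and 1.54 CPM at Veh and was not called, and neither were *Cd2*, *Cd5* and *Il7r*.

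The cytotoxic granule genes gave some of the clearest differences, with all 4 higher at Veh. Of these, 3 (*Gzma*, *Nkg7* and *Prf1*) had passed the filter through the libraries labelled steatotic alone. *Gzmb*, granzyme B, which triggers death of target cells, was at 4.69 and 3.44 CPM (normal, Veh), 2.02 and 2.73 CPM (normal, CC), 50.3 and 47.4 CPM (steatotic, Veh) and 33.8 and 34.6 CPM (steatotic, CC). Every library labelled steatotic was far above every one labelled normal, and with either label the CC libraries were below the Veh libraries. At Veh it was 11.9-fold higher (exact interval 10.0 to 14.3), with a log2 fold change of 3.63 ± 0.18 (adjusted p = 1.22e-05). *Gzma*, granzyme A, was at 0 in 3 of the 4 libraries labelled normal and at 0.0801 CPM in the fourth, against 4.48 and 3.70 CPM (steatotic, Veh) and 3.51 and 4.45 CPM (steatotic, CC). It was at least 46.4-fold higher against the floor at Veh (exact lower limit 37.2), where the 2 libraries labelled normal had no count and those labelled steatotic had 578. *Nkg7*, a protein of the granule membrane, was at 0.113 to 0.317 CPM with the label normal and 3.39 to 4.91 CPM with the label steatotic, and its log2 fold change at Veh was 4.50 ± 0.44 (adjusted p = 0.000199). *Prf1*, the pore-forming perforin, was at 0 to 0.257 CPM and 2.07 to 2.59 CPM. It lay just inside the threshold at Veh (4.32 ± 1.21, adjusted p = 0.0449) and DESeq2 did not call it there (adjusted p = 0.110).

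The 5 NK receptor genes were also all higher at Veh. Of these, 3 (*Klrb1c*, *Klrd1* and *Ncr1*) had passed the filter through the libraries labelled steatotic alone. *Il2rb*, the receptor chain shared by IL-2 and IL-15, the cytokine on which NK cells depend, was at 1.06 and 1.51 CPM (normal, Veh), 1.70 and 1.87 CPM (normal, CC), 19.2 and 18.6 CPM (steatotic, Veh) and 19.8 and 15.5 CPM (steatotic, CC). The labels were far apart, at 14.8-fold at Veh (exact interval 10.8 to 20.4), and the log2 fold change of 3.92 ± 0.20 had the lowest adjusted p-value of the 36 genes (8.67e-06). *Klrk1*, which encodes the activating receptor NKG2D, was at 4.33 and 4.51 CPM (normal, Veh), 2.76 and 2.69 CPM (normal, CC), 16.2 and 19.6 CPM (steatotic, Veh) and 9.97 and 10.6 CPM (steatotic, CC). With *Gzmb* it was among the few of these genes well above the floor in the libraries labelled normal, and its log2 fold change at Veh was 2.06 ± 0.13 (adjusted p = 2.03e-05). *Ncr1*, which encodes NKp46 and marks NK cells and ILC1, was at 0.184 and 0.0755 CPM (normal, Veh), 0 and 0 CPM (normal, CC), 1.89 and 1.45 CPM (steatotic, Veh) and 1.31 and 1.38 CPM (steatotic, CC). *Klrd1*, the CD94 chain, had the same pattern, with 0 to 0.127 CPM and 1.59 to 1.98 CPM, and *Klrb1c*, the NK1.1 antigen, had 0 to 0.283 CPM and 0.966 to 1.43 CPM. The ratio at Veh was 12.6 (5.27 to 53.9) for *Ncr1*, 19.7 (6.40 to 97.7) for *Klrd1* and 9.26 (3.70 to 29.8) for *Klrb1c*. *Klrb1c* lay just inside the threshold (adjusted p = 0.0483).

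**Figure D2:**
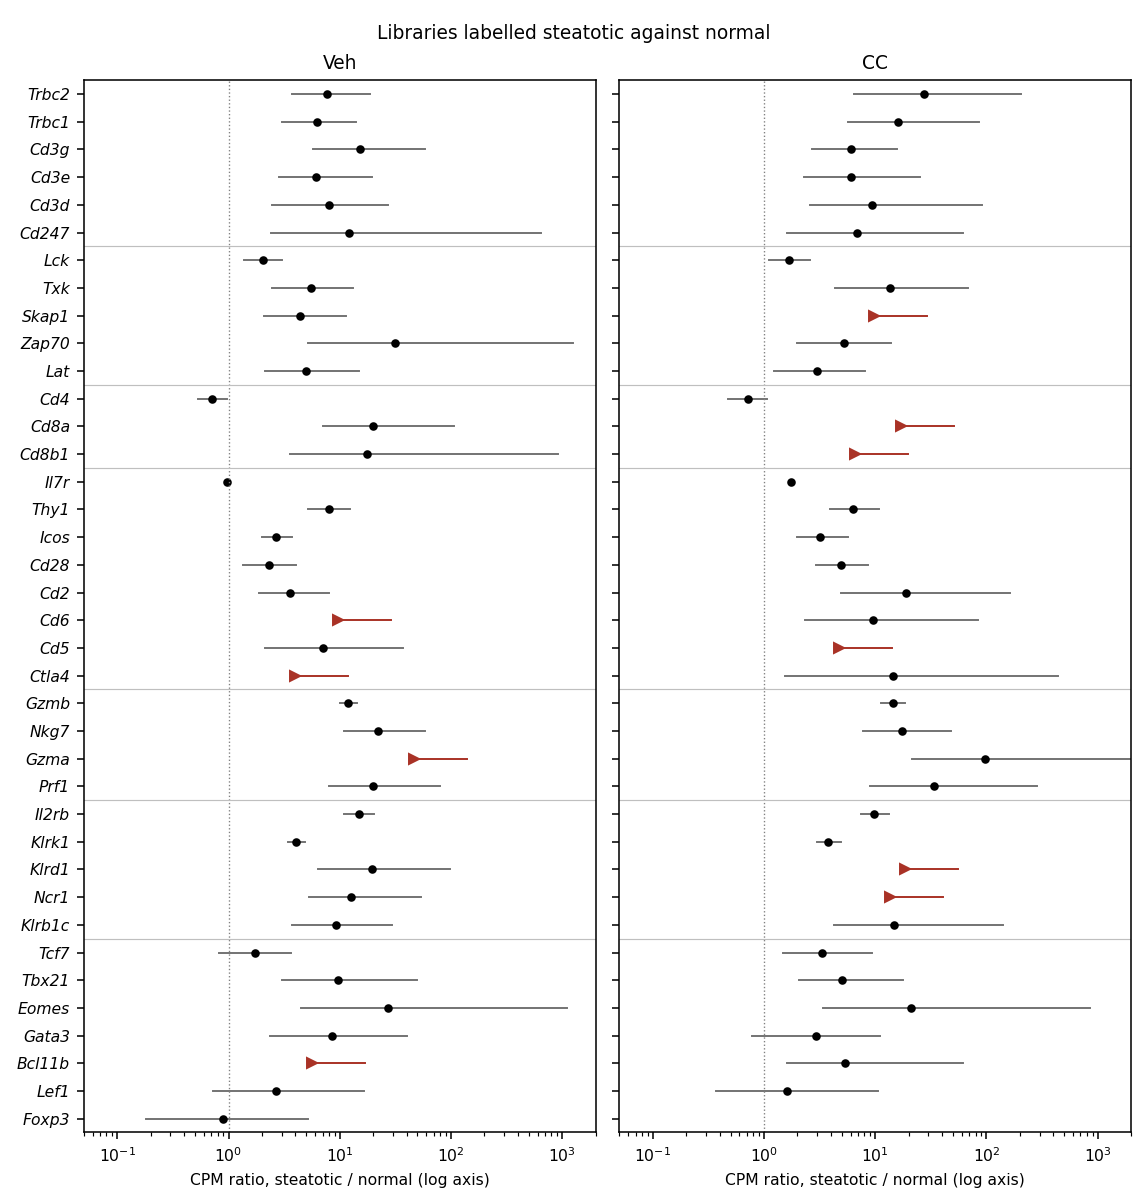
Ratio of CPM, from counts and totals each summed over the 2 libraries of a group, of the label steatotic to the label normal (log axis). Veh is at the left and CC at the right, with 95% exact intervals that cover counting error only. Red triangles are lower bounds for genes with 0 counts with the label normal, taken against the floor with the other count held fixed (at least 46.4-fold for *Gzma* at Veh), the interval of *Gzma* with CC runs past the right edge, and *Foxp3* with CC is left out because both groups were under 12 counts.

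The transcription factors were near the floor. *Eomes*, which NK cells need to mature and which ILC1 of the liver lack, had 4 against 113 counts at Veh and was at 0 to 0.0641 CPM with the label normal and 0.625 to 0.849 CPM with the label steatotic. *Gata3* (0.0567 to 0.128 CPM against 0.242 to 0.747 CPM) and *Bcl11b* (0 to 0.0852 CPM against 0.293 to 0.680 CPM), which set the T cell fate, were called higher at Veh together with *Eomes*. *Bcl11b* had 0 counts with the label normal at Veh and was at least 5.62-fold higher (exact lower limit 4.24). *Tbx21*, the T-bet factor of type 1 lymphocytes, was at 0 to 0.205 CPM and 0.381 to 1.31 CPM and missed the threshold at Veh (3.26 ± 1.16, adjusted p = 0.0740). *Tcf7* was at 0.222 to 0.544 CPM against 0.498 to 0.945 CPM, so that 1 library labelled normal lay above 1 labelled steatotic. *Lef1* was at 0.0567 to 0.153 CPM and 0.148 to 0.326 CPM. *Foxp3*, the factor of regulatory T cells, was at 0.0641 to 0.127 CPM with the label normal and 0 to 0.109 CPM with the label steatotic, at or under the floor in every library, so that no difference could be seen at this depth.

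With CC, 27 of the 36 tested genes were higher in the libraries labelled steatotic (15.9% of all tested genes were) and 0 lower (12.9%). DESeq2 and an unadjusted p-value under 0.05 (18.5% of all tested genes) also gave 0 lower, and the same 26 of the 36 had passed the filter through 1 label alone. The median log2 fold change was 3.29, or 2.99 with 6 genes set to their bound, against 0.00 over all tested genes. The comparison shares no library with that at Veh, but both come from 1 model and 1 filter. Of the calls, 21 were made in both, which is 84% of those at Veh and 77.8% of those with CC. The share of all tested genes called in both was not computed, so that this overlap is a description. *Gzmb* was 14.5-fold higher with CC (exact interval 11.3 to 18.5; log2 fold change 3.88 ± 0.19, adjusted p = 1.1e-05), *Il2rb* 9.82-fold (7.43 to 13.2; 3.33 ± 0.20, adjusted p = 1.83e-05) and *Klrk1* 3.78-fold (2.99 to 4.90; 1.94 ± 0.13, adjusted p = 3.27e-05). *Klrd1*, *Cd8a*, *Ncr1*, *Skap1*, *Cd8b1* and *Cd5* had no count in either library labelled normal with CC, and were at least 18.4-fold, 17.1-fold, 13.6-fold, 9.79-fold, 6.55-fold and 4.75-fold higher against the floor, in this order (exact lower limits 14.6, 13.6, 10.6, 7.54, 4.97 and 3.33). *Il7r*, *Cd28*, *Cd2*, *Cd5*, *Trbc1* and *Txk* were called with CC and not at Veh, and *Cd6*, *Ctla4*, *Bcl11b* and *Gata3* at Veh and not with CC. Of these differences between Veh and CC, only that of *Il7r* passed the test of the difference itself, and that of *Cd2* did so without the second CC library labelled normal. Just past the threshold with CC were *Tcf7* (1.77 ± 0.57, adjusted p = 0.0528), *Ctla4* (adjusted p = 0.0616) and *Cd6* (adjusted p = 0.0621), the last 2 with 3 and 8 counts with the label normal. *Cd4*, *Cd247*, *Lat*, *Tbx21* and *Tcf7* were called in neither comparison.

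Among the changes with the crystals that of *Il7r* was the plainest, while many of these genes had counts near the floor. *Il7r* encodes the α chain of the receptor for IL-7, a survival cytokine of T cells and innate lymphoid cells, and it was at 166 and 171 CPM (normal, Veh), 343 and 334 CPM (normal, CC), 166 and 158 CPM (steatotic, Veh) and 635 and 560 CPM (steatotic, CC). The labels did not separate at Veh, where the ratio was 0.965 (exact interval 0.930 to 1.00), and with CC both labels were higher than at Veh and the label steatotic more so, at 1.75-fold the label normal. In the same libraries labelled normal, *Cd3e* was at 0.113 to 0.272 CPM and *Ncr1* at 0 to 0.184 CPM. Which cells of the preparation carried *Il7r* was not tested. CC raised *Il7r* by 1.05 ± 0.06 on the log2 scale with the label normal (adjusted p = 9.1e-05) and by 1.90 ± 0.06 with the label steatotic (adjusted p = 2.87e-06). The difference between these responses was 0.85 ± 0.09 (adjusted p = 0.00415, range 3.68e-11 to 0.0216 over 15 other settings). It was the 1 gene among the 36 with such a difference (1.95% of all tested genes had one in this direction), and 0 had the opposite one (1.27%) with edgeR or DESeq2. The count of 1 was 2 with DESeq2 (*Skap1* added), 5 without a filter on counts (*Skap1*, *Cd8a*, *Klrd1* and *Ncr1* added) and 2 without the second CC library labelled normal (*Cd2* added). At an unadjusted p-value under 0.05, 5 genes had a larger and 1 a smaller response with the label steatotic, against 7.94% and 6.26% of all tested genes.

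With the label normal, CC lowered 7 of the 36 genes (5.54% of all tested genes were lower) and raised 1, *Il7r* (6.27% were higher). *Icos* fell by 1.34 on the log2 scale (SE 0.25, adjusted p = 0.013), *Gzmb* by 0.74 (SE 0.18, adjusted p = 0.0421) and *Klrk1* by 0.66 (SE 0.13, adjusted p = 0.0153). The other 4, *Skap1*, *Ncr1*, *Cd8a* and *Klrd1*, had 33, 18, 13 and 12 counts over the 2 libraries with Veh and 0 with CC, which is 3 to 8 fragments against none, and they were not called when counts were divided by 4. The count of 7 was 2 without the first Veh or the first CC library labelled normal, and with the 4 libraries of this label alone *Icos* was the 1 gene called (*Klrk1* adjusted p = 0.0564, *Gzmb* 0.130). *Gzmb* was also not called without the first Veh or the first CC library labelled normal (adjusted p = 0.165 and 0.166) or without any 1 of the libraries labelled steatotic (0.0750 to 0.0783). *Klrk1* was not called without any 1 of the libraries labelled normal (0.0573 to 0.0761), and *Icos* not without either Veh or the second CC library of that label (0.0507 to 0.0751). With the label steatotic, CC raised 1 gene, *Il7r* (12% of all tested genes were higher), and lowered 2 (10.9% were lower). *Cd28* was a second raised gene with the 4 libraries alone or without either CC library labelled normal, and *Klrk1* was the 1 lowered gene without the second Veh or the first CC library labelled steatotic. *Icos* fell by 1.11 (SE 0.23, adjusted p = 0.0114), from 4.04 and 5.42 CPM to 1.97 and 2.35 CPM, and *Klrk1* by 0.78 (SE 0.12, adjusted p = 0.0029), from 16.2 and 19.6 CPM to 9.97 and 10.6 CPM. Both genes thus had their CC libraries below their Veh libraries with either label, as did *Gzmb* and *Cd4*. *Cd4* (-0.70 ± 0.23, adjusted p = 0.0679) and *Gzmb* (-0.50 ± 0.16, adjusted p = 0.0706) lay just past the threshold with the label steatotic, and *Gzmb* was called there with DESeq2, with counts divided by 4 and with the 4 libraries alone. *Cd28* was higher with CC there, at 3.004 and 2.82 CPM after 1.26 and 1.54 CPM, but was not called (1.07 ± 0.46, adjusted p = 0.150). The comparisons of CC with Veh share their Veh libraries with the comparison of the labels at Veh. Of the 15 macrophage markers, 12 were lower with CC with either label, and 0 (normal) and 2 (steatotic) higher. Their sum went from 27314 to 28191 CPM at Veh to 20909 to 21242 CPM with CC for the label normal. For the label steatotic it went from 28979 to 29829 CPM to 20167 to 22130 CPM. The part of this in the changes above was not tested.

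**Figure D3:**
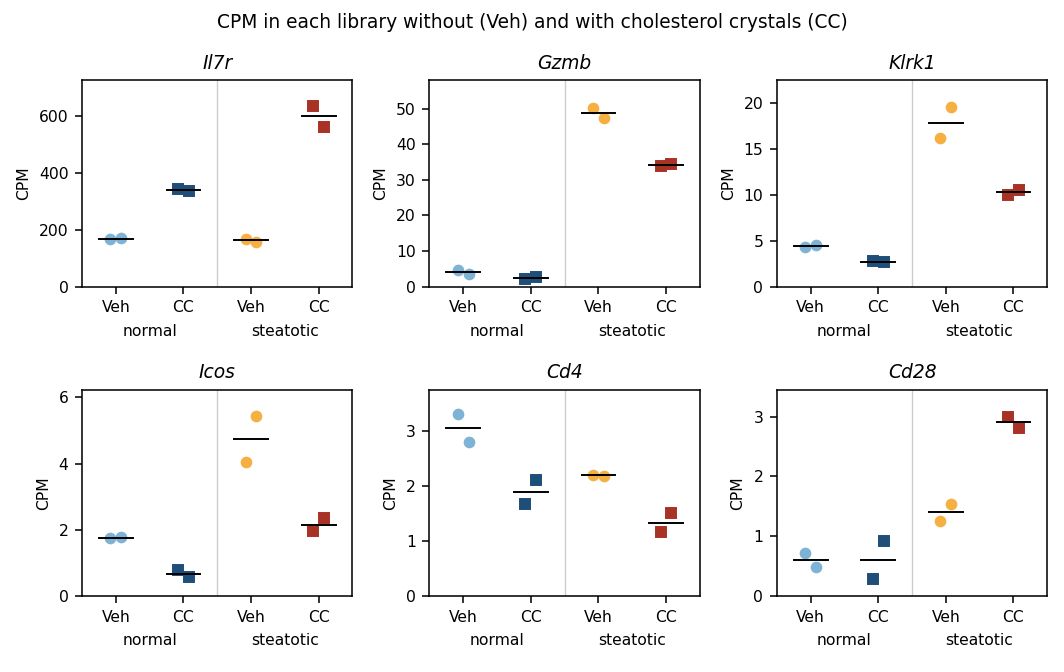
CPM (axis from 0) of 6 genes in each library, without (Veh, circles) and with cholesterol crystals (CC, squares), for the labels normal and steatotic, with black lines at the mean of the 2 libraries. *Il7r* is higher with CC and most so with the label steatotic, while *Gzmb*, *Klrk1*, *Icos* and *Cd4* have their CC libraries below their Veh libraries.

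Levels of different genes were compared only as CPM per kb of exon, from the annotated exon length. With the label steatotic, *Il7r* and *Gzmb* were level at Veh (means of 34.8 and 34.01 CPM per kb, with libraries that overlapped), and *Il7r* stood above *Gzmb* with CC (128 and 23.8). Over the 4 libraries of this label they were followed by *Nkg7* (4.45), *Il2rb* (4.27) and *Gzma* (4.01), *Trbc2* (2.46) and *Trbc1* (2.20), *Klrk1* (1.96), *Thy1* (1.63) and *Klrd1* (1.39) CPM per kb. The ranges of *Nkg7*, *Il2rb* and *Gzma* over the 4 libraries overlapped, as did those of each pair of neighbours from *Trbc2* to *Klrd1*, so that their order is not fixed. The lowest were *Bcl11b* (0.0579), *Lef1* (0.0241) and *Foxp3* (0.0159) CPM per kb, where neighbours overlapped as well. In the libraries labelled normal, *Il7r* (54.4) and *Gzmb* (2.24) were again the highest. Within a library labelled steatotic, the per-kb level of *Gzmb* was 5.43 to 8.98 times that of *Gzma*, *Ncr1* was 3.30 to 4.79 times *Cd3e*, and *Il2rb* was 15.2 to 19.97 times *Cd3e*. *Klrk1* stood at 1.63 to 2.90 times *Ncr1* in these libraries, and *Il7r* at 118 to 641 times *Cd3e*. With the label normal, *Cd3e* and *Ncr1* were too near the floor for such ratios. These ratios are descriptions, with no test.

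**Figure D4:**
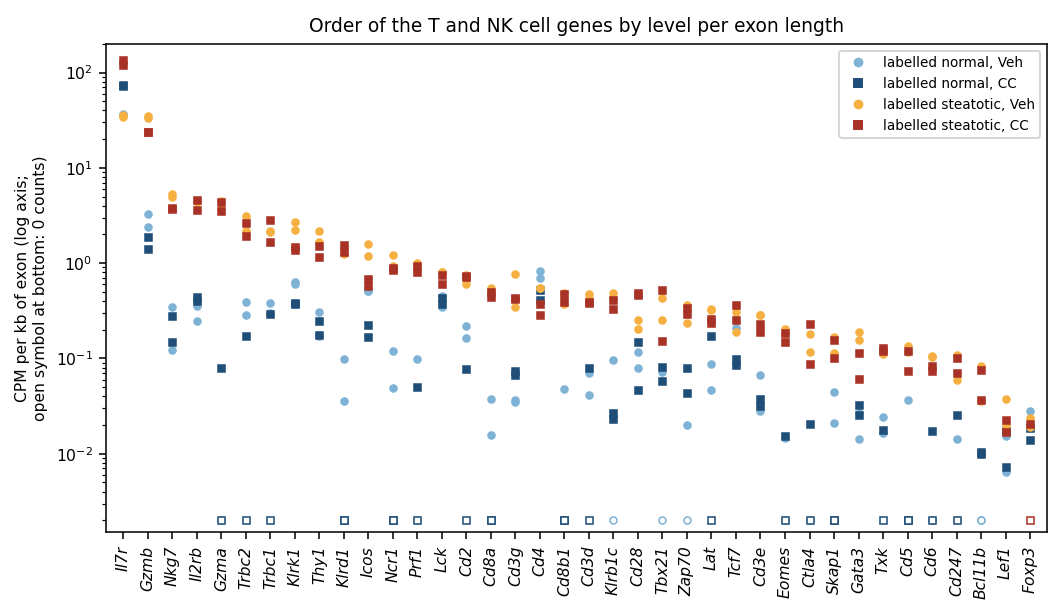
CPM per kb of exon (log axis) of each gene in each of the 8 libraries, ordered by the mean over the 4 libraries labelled steatotic, with open symbols at the bottom for 0 counts. With that label *Il7r* and *Gzmb* are level at Veh (means of 34.8 and 34.01 CPM per kb) and apart with CC (128 and 23.8), and *Lef1* and *Foxp3* are last.

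Other genes of these cells were read from lists that are not members, to be set against 16.4% of all tested genes higher and 14.3% lower at Veh. As with the 38 genes, many passed the filter through the libraries labelled steatotic alone (11 of 24, 6 of 13, 4 of 9, 0 of 6 and 1 of 5 for the first 5 lists, in the order below), so that these counts too are a description. Of 24 tested genes of the T cell receptor pathway (28 listed), 20 were higher at Veh with the label steatotic and 0 lower. The 3 with the highest mean CPM, *Ptprc*, *Vav1* and *Lcp2*, are also expressed by macrophages, and their log2 fold changes were small (0.95, 0.27 and 0.20). Of 13 tested NK cell and ILC1 genes (22 listed), 12 were higher and 0 lower. *Tnfsf10* made up 56.8% of the sum of this list. *Gzmc*, a further granzyme, was at 0.443 to 1.07 CPM with the label normal and 5.31 to 7.47 CPM with the label steatotic, and *Itga1*, an integrin of ILC1 and resident T cells, at 0.567 to 1.22 and 3.75 to 8.84 CPM. Of 9 effector cytokines and ligands, 6 were higher. The most abundant, the chemokine *Ccl5*, made up 97.5% of the sum of the list, at 254 to 345 CPM against 822 to 879 CPM. Of 6 naive T cell genes, 1 was higher and 3 were lower, among them *S1pr1* and *Klf2*, which made up 81.6% of the sum of the list. Which cells carried *Tnfsf10*, *Ccl5*, *S1pr1* and *Klf2* was not tested. Of 5 regulatory T cell genes other than *Foxp3*, 4 were higher, with *Il2ra* at 0.283 to 0.785 CPM against 1.84 to 2.51 CPM, and *Lrrc32* and *Ikzf2* also among them. For γδ and NKT cells, 9 of 12 listed genes were found and 2 tested, neither of them called, and *Trdc*, the δ-chain constant gene, was at 0 to 0.112 CPM with the label normal and 0.183 to 0.395 CPM with the label steatotic. For group 2 innate lymphoid cells, 2 of 7 genes were tested and 0 called at Veh.

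Markers of other cells that a preparation can hold were read as well, where the sum of a list often rested on 1 or 2 genes. Genes named here beyond the 3 most abundant of a list or its defining markers were chosen after their values were seen (*Fcmr*, *Ly6g*, *Cpa3*, *Fcer1a* and *Ms4a2*). Of 9 tested B cell and plasma cell markers, 0 were higher and 1, *Fcmr*, was lower at Veh. *Cd22* and *Blnk* made up 94.7% of the sum of this list, so that the sum says little on B cells. *Cd79a*, a chain of the B cell receptor complex, was at 0.409 to 0.574 CPM with the label normal and 0.0915 to 0.272 CPM with the label steatotic, and *Ms4a1* (CD20) at 0.793 and 0.906 CPM against 1.90 and 1.51 CPM at Veh, neither of them called. Of 3 tested plasmacytoid dendritic cell markers, 1 was higher, *Cox6a2*, at 1.26 and 1.06 CPM against 3.37 and 2.85 CPM at Veh, while *Siglech*, a defining receptor of these cells, was at 0.368 and 0.332 CPM against 0.351 and 0.326 CPM. Of 2 tested mast cell and basophil markers, 1 was higher, *Kit*, at 3.47 and 3.26 CPM against 6.95 and 6.71 CPM, whereas *Cpa3* and *Mcpt8* stayed at 0 to 0.0641 CPM and *Fcer1a* and *Ms4a2* at 0 in every library. Both kinds of cell can make granzyme B, and the markers just given are the measurements that bear on them. *Mmp8* made up 90.5% of the sum of the neutrophil markers and was higher at Veh, at 50.1 and 46.4 CPM against 94.1 and 98.0 CPM, while *S100a8* was lower (9.08 and 9.94 CPM against 5.44 and 4.29 CPM) and *Ly6g* had 0 counts in every library. *Pf4* made up 98.9% of the platelet and erythroid sum and was higher, at 11.6 to 14.7 CPM against 68.0 to 80.9 CPM. Conventional dendritic cell markers had 3 of 6 tested genes higher and 1 lower at Veh, endothelial markers 4 of 9 higher and 1 lower, cholangiocyte markers 1 of 4 higher and 0 lower, and proliferation genes 2 of 6 higher and 1 lower.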

How the data were processed

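Poly(A) RNA of F4/80-selected hepatic macrophages was measured in 8 libraries (150 bp paired-end reads, directional kit). The authors used fastp for trimming, HISAT2 for alignment to mm10 and StringTie for quantification, all with versions not given in the sources used here, and whether counting used strand is not stated either. The authors deposited estimated counts per gene, not normalized, as whole numbers that needed no rounding. Since 35.0% to 36.5% of the values from 1 to 20 were multiples of 4, against 23.9% to 27.0% of larger ones, 1 fragment was taken as 4 counts for floors and intervals.

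The test covered 15202 genes that reached 0.5 CPM in 1 library or more, in 1 edgeR 4.0.16 quasi-likelihood model (R 4.3.3, robust, 4 group means, TMM factors 0.981 to 1.03, no block), with Benjamini-Hochberg adjustment over all tested genes and a threshold of 0.05. SE is the log2 fold change over the root of F, and fitted changes of genes with a group near 0 counts depend on the prior count. Ratios are of counts summed over the libraries of a group and divided by their summed totals, with exact 95% intervals on fragments. Against 0 counts, 12 counts over the group gave the bound, with the other count held fixed. Library totals, 58668655 to 74529462, set the floor of 0.161 to 0.205 CPM. Coordinates, exon lengths and transcripts are from GENCODE M21 (GRCm38), promoters from RefSeq. Exons of another gene on the same strand overlapped those of 6 of the 38 genes (*Cd247*, *Foxp3*, *Gata3*, *Klrb1c*, *Lat* and *Lck*), so that reads there may be shared. The fits were tested on simulated data.

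The genes and lists were chosen with earlier results of these data known. Named were all 38 genes, *Mc4r* and *Alb*, and at most the 3 genes of largest mean CPM per further list, and defining markers, some of which are not reported here, and a few markers named after their values were seen. Log2 fold changes of the 38 were printed only where called or, per contrast, for at most 3 nearest past the threshold, and ratios also for others. Alternatives were DESeq2 1.42.0, its size factors, library size only, other filters, counts divided by 4, the 4 libraries of a comparison alone, the replicate block and leaving out each library in turn.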

Additional observations from a re-analysis of the deposited data

Results flagged for a closer look

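1 result differed between the labels under the same contrast. The response of *Il7r* to CC was larger by 0.85 on the log2 scale with the label steatotic than with the label normal, in a test of the difference itself (edgeR quasi-likelihood test, SE 0.09, adjusted p = 0.00415 over all tested genes). The mean was 168 ± 3.63 CPM (SD, n = 2) with Veh and 339 ± 6.48 CPM with CC for the label normal, and 162 ± 6.00 CPM and 597 ± 52.9 CPM for the label steatotic. Over 15 other settings the difference ranged from 0.754 to 0.938. Per kb of exon, *Il7r* stood at 118 to 641 times *Cd3e* in the libraries labelled steatotic. Which cells of the preparation carried this response was not tested. Groups of 2 libraries are too small for a single library to be called far from the rest.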

How the results depend on the processing

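Of the T and NK cell genes, 25 were higher at Veh and 27 with CC in the reported fit, and no direction reversed under any alternative. Leaving out each library in turn gave 18 to 30 at Veh and 18 to 27 with CC. A fit of the remaining libraries assumes that the lone library of a group varies like the others. Of the calls, 25 of 25 at Veh and 26 of 27 with CC remained with counts divided by 4, and 24 and 25 with DESeq2. The count of genes lower with CC in libraries labelled normal, 7 as reported, was 3 with counts divided by 4 and 1 with the 4 libraries alone. It was smaller whenever a library was left out, and the genes themselves changed as well. Without the second CC library labelled normal, *Cd2*, *Lat*, *Trbc1* and *Trbc2* entered, and of the 7 only *Gzmb* stayed. Higher with CC in libraries labelled normal were 1 to 2 genes, the second one appearing without the second Veh library or either CC library of that label. Higher with CC in libraries labelled steatotic was 1 gene, 2 with the 4 libraries alone, and 1 to 2 with a library left out (2 without either CC library labelled normal). Lower there were 2 genes, 3 (with *Gzmb*) with DESeq2, counts divided by 4 or the 4 libraries alone, and 1 to 3 with a library left out (1 without the second Veh or the first CC library labelled steatotic). The difference between the responses was higher in 1 gene, in 2 with DESeq2, in 5 without a filter on counts and in 1 to 2 with a library left out (2 without the second CC library labelled normal). Why these counts moved was not tested, except that fewer libraries or genes enter some of these fits. The replicate numbers did not pair the libraries (correlations of -0.032 to 0.043 over 9021 genes), and with the replicate block 25 genes were higher at Veh and 24 with CC, and 5 were lower with CC in libraries labelled normal, without *Gzmb* (adjusted p = 0.0827) and *Cd8a*. Depth limits every statement on genes under about 0.2 CPM, where 3 fragments or fewer were seen.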
